A study of Mus musculus with 8 samples.

Results

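Voltage-gated sodium channel subunits were examined in RNA sequenced from whole mouse brains without separation of cells, as 8 genes picked by their symbols out of the 24343 genes measured. 5 of them encode pore subunits (Scn1a, Scn2a1, Scn3a, Scn8a and Scn9a, where Scn2a1 is the older symbol of Scn2a) and 3 encode beta subunits (Scn2b, Scn3b and Scn4b). The RNA came from 3 C57BL/6NCrl mice of 56–62 days of age for which the labels name no treatment, no engineered allele and no sex. Mice 1 and 2 gave 3 libraries each and mouse 3 gave 2, so that all 8 libraries belong to a single condition and the comparison the design allows is between individual mice. What separates the libraries of a mouse is not given in the sources used here, so the spread between them may be technical, and the p-values below measure only that spread. The values are FPKM, a level scaled for both transcript length and library size, summed over the transcripts of a gene, and the 1.31–2.02 Gb read on transcripts per library (median 1.76 Gb, coverage multiplied by transcript length) set their precision.

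Each sodium channel is built around 1 large pore subunit, with 4 linked domains that sense voltage and open the pore, and it carries the rising phase of the action potential. Beta subunits are small single-pass membrane proteins with an immunoglobulin-like domain that tune gating and tether the channel to adhesion molecules. In the brain, Scn1a (Nav1.1) is known for its role in fast-spiking interneurons, Scn2a (Nav1.2) for excitatory neurons and unmyelinated axons, Scn8a (Nav1.6) for the axon initial segment and nodes of Ranvier, Scn3a (Nav1.3) for expression that is highest before birth and Scn9a (Nav1.7) for peripheral sensory neurons.

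The genes lie in clusters (mm10, positions counted from 1). Scn3a (chr2:65457118-65567492, minus strand), Scn2a1 (chr2:65670445-65767447, plus), Scn1a (chr2:66270782-66440837, minus) and Scn9a (chr2:66480081-66634962, minus) share a stretch of 1178 kb on chromosome 2, in which 39.2 kb separate Scn1a from Scn9a. Scn8a stands alone on chromosome 15 (chr15:100870645-101045938, plus). Scn2b (chr9:45117876-45130070, plus) and Scn4b (chr9:45139042-45154061, plus) are neighbours 8.97 kb apart, with Scn3b (chr9:40269216-40291618, plus) elsewhere on chromosome 9. Scn1a, Scn3a, Scn9a, Scn2b and Scn3b each overlap an annotated GENCODE gene on the opposite strand, and since the strand setting is not stated, reads of these partners cannot be told apart from those of the channel genes.

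Scn8a and Scn9a, among other sodium channel genes, carry a pair of alternative exons. Both exons encode the same stretch of the voltage sensor of the first domain. The upstream one is known as the neonatal form and the downstream one as the adult form. The deposited transcripts of Scn8a and Scn9a differ by this choice, though in neither gene by it alone. The downstream exon of each gene is shown because most Scn8a expression was assigned to the transcript that holds it (GENCODE vM21 on GRCm38, coding throughout, 5′ to 3′ on the gene's strand), with the bases that differ between the genes in capitals.
Scn8a downstream exon (chr15:100959603-100959694, plus strand, exon 5 of 26, in NM_011323): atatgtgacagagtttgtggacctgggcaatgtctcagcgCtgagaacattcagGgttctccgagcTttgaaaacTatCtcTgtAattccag
Scn9a downstream exon (chr2:66563336-66563427, minus strand, exon 7 of 28, in NM_001290675): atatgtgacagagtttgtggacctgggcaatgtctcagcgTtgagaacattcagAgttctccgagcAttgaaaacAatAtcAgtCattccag
Both are 92 bases long, and 7 of the 92 bases differ (92.4% identity).

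The beta genes Scn2b and Scn4b were the highest of the 8, and the 5 pore genes spread over a wide range from Scn2a1 to Scn9a. Levels are given as means ± SD over 3 mice after averaging the libraries of each, and genes are compared on the FPKM scale, which is per length. Scn2b, whose product links covalently to the pore subunit, was measured at 59.0 ± 6.79 FPKM, above 92.0% of the 13001 genes that averaged 1 FPKM or more. Scn4b, which encodes the other covalently linked beta subunit and the blocking peptide of resurgent current, came next with 41.9 ± 5.25 FPKM.

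Among pore genes, Scn2a1 led with 35.5 ± 8.02 FPKM, followed by Scn8a with 23.6 ± 5.52 FPKM and Scn1a with 23.1 ± 2.35 FPKM. Scn3b, a non-covalently bound beta subunit, stood beside them with 23.2 ± 3.22 FPKM. Scn3a was 5.16 times lower than Scn1a, with 4.47 ± 1.15 FPKM. Scn9a, with 0.435 ± 0.110 FPKM, was 10.3 times lower again, and was the only one of the 8 genes below a mean of 1 FPKM.

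Not every step of that order exceeds the spread. Scn2b was above Scn4b, Scn1a above Scn3a, and Scn3a above Scn9a with no overlap between their 8 libraries. The ranges of Scn4b and Scn2a1 overlapped, as did those of Scn2a1 and Scn8a, although the first gene of each pair was higher in 8 of 8 libraries. Scn8a, Scn3b and Scn1a could not all be ordered: Scn8a was above Scn3b in 6 of 8 libraries and Scn3b above Scn1a in 4 of 8. Scn8a was above Scn1a in every library except the second of mouse 3 (13.8 against 20.9 FPKM).

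**Figure D1:**
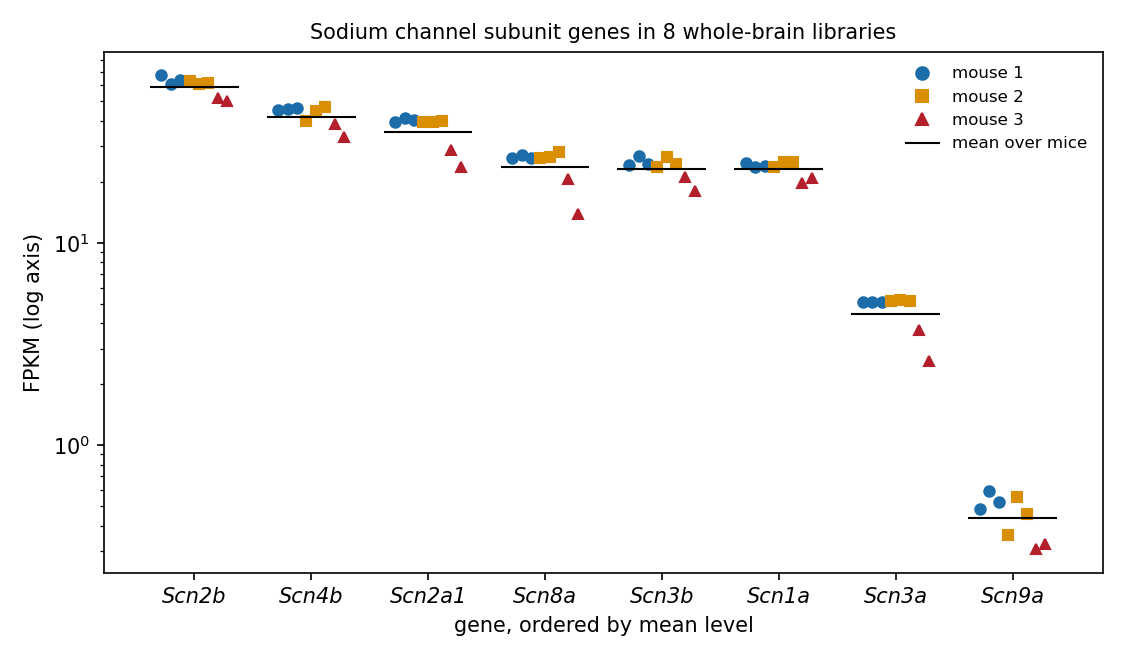
FPKM (log axis) of the 8 sodium channel subunit genes, ordered by mean level, in each library of mouse 1 (circles), mouse 2 (squares) and mouse 3 (triangles), with the mean over mice as a line. Both triangles lie below all other points for each gene, and Scn3a and Scn9a stand apart from the other 6 genes, which have means of 23.1–59.0 FPKM.

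The 5 pore genes summed to 95.0–98.9 FPKM in the 6 libraries of mice 1 and 2, in which Scn2a1 held 40.4–42.4%, Scn8a 27.3–28.5%, Scn1a 24.1–25.9%, Scn3a 5.19–5.40% and Scn9a 0.379–0.605% of the sum. The 3 beta genes summed to 126.6–137 FPKM in the same libraries, 1.33–1.43 times the pore sum. The division among the beta genes varied little between mice, with 47.6 ± 0.436% for Scn2b, 33.8 ± 0.202% for Scn4b and 18.7 ± 0.403% for Scn3b.

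All 8 genes were lowest in mouse 3. Scn2a1 was measured at 39.5, 41.5 and 40.6 FPKM in mouse 1, at 39.5, 39.6 and 39.9 FPKM in mouse 2 and at 28.8 and 23.7 FPKM in mouse 3. Scn8a was at 26.3, 27.1 and 26.4 FPKM in mouse 1, at 26.2, 26.6 and 28.2 FPKM in mouse 2 and at 20.6 and 13.8 FPKM in mouse 3. Scn3a was at 5.08, 5.08 and 5.12 FPKM, then 5.13, 5.21 and 5.17 FPKM, then 3.69 and 2.59 FPKM. For these 3 pore genes mice 1 and 2 were nearly level, and the libraries of mouse 3 fell short of them with the second library lowest.

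Scn1a departed least among the pore genes, with 24.7, 23.6 and 23.9 FPKM in mouse 1, 23.8, 25.2 and 25.1 FPKM in mouse 2 and 19.8 and 20.9 FPKM in mouse 3. Its second library of mouse 3 held 85.7% of the mean of mice 1 and 2, where Scn2a1 held 59.1%, Scn8a 51.6% and Scn3a 50.5%. Scn9a was at 0.485, 0.592 and 0.524 FPKM, then 0.360, 0.554 and 0.455 FPKM, then 0.307 and 0.324 FPKM. For this gene the first library of mouse 2 came near those of mouse 3.

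The beta genes lay at 71.8–86.1% of the mean of mice 1 and 2 in the libraries of mouse 3, beside 81.2% and 85.7% for Scn1a. Scn2b was at 67.4, 60.7 and 63.4 FPKM in mouse 1, at 62.9, 60.8 and 61.9 FPKM in mouse 2 and at 52.1 and 50.3 FPKM in mouse 3. Scn4b was at 45.4, 46.0 and 46.2 FPKM, then 40.1, 44.9 and 47.1 FPKM, then 38.7 and 33.2 FPKM. Scn3b was at 24.3, 27.0 and 24.4 FPKM, then 23.7, 26.6 and 24.6 FPKM, then 21.0 and 18.0 FPKM. The gap between mouse 3 and the lowest other library was smallest for Scn4b, where the first library of mouse 2 came near.

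limma's moderated F-test over the 3 mice on log2(FPKM + 1), with Benjamini-Hochberg adjustment over the 13001 genes, called 5 of the 7 members that passed the filter of 1 FPKM, against 25.5% of all genes tested. All 5 were lower in mouse 3, which holds for 11.3% of all genes. Both libraries of mouse 3 lay below the other 6 for all 7 of these members, as they did for 21.7% of all genes. The median log2 difference of mouse 3 from mice 1 and 2 was -0.35 over the 7 members and 0.02 over all genes. On this scale a pseudocount of 1 understates changes of low genes.

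Scn2a1 fell by 0.60 on the log2 scale (SE 0.08, adjusted p = 0.00860, limma), Scn8a fell by 0.63 (SE 0.13, adjusted p = 0.0230) and Scn3a fell by 0.58 (SE 0.10, adjusted p = 0.0141). These differences were among the lowest 2.29%, 1.85% and 2.73% of all genes. Among the beta genes, Scn2b fell by 0.29 (SE 0.07, adjusted p = 0.0425) and Scn3b fell by 0.35 (SE 0.09, adjusted p = 0.0493), both close to the threshold of 0.05. Scn1a (log2 difference -0.25, SE 0.07, adjusted p = 0.0619) and Scn4b (-0.32, SE 0.09, adjusted p = 0.0654) did not pass. Scn9a, tested only when the filter on low values was dropped, did not pass either, with a log2 difference of -0.18 (SE 0.06, adjusted p = 0.145, limma).

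Mice 1 and 2 differed by -0.04 to 0.06 on the log2 scale for the 7 members, with SEs of 0.07–0.13, so no difference between them was resolved. The confidence bounds deposited with each value were compared for the members with 1 transcript. The upper bounds of both mouse 3 libraries were below the lower bounds of all 6 others for Scn1a, Scn2a1, Scn3a and Scn2b, and for Scn4b this held for the second library against 6 of 6 and for the first against 5 of 6. Those bounds describe the estimate within 1 library and not the spread between libraries. No share of all genes with such separate bounds is given, so the members cannot be set against the whole table here.

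The calls changed with the library of mouse 3 that was used. With only 1 library left for mouse 3, the spread comes from mice 1 and 2 alone, and the lone library is assumed to vary like theirs. Without the second library, 0 of 7 members passed limma's test beside 0.969% of all genes. Without the first library, 5 of 7 passed (Scn2a1, Scn3a, Scn8a, Scn3b and Scn4b) beside 29.4% of all genes. The log2 differences without the second library were -0.47 for Scn2a1, -0.39 for Scn3a, -0.36 for Scn8a, -0.29 for Scn1a, -0.26 for Scn2b, -0.24 for Scn3b and -0.21 for Scn4b. Those of Scn1a and Scn2b moved little from the values over all libraries, and that of Scn8a moved most.

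Differences of mouse 3 ran with transcript length across the whole table, and the members are long. The median log2 difference was 0.41 in the fifth of genes with the shortest transcripts (up to 1573 nt) and -0.21 in the fifth with the longest (from 4685 nt). The pore transcripts, of 8287 nt in Scn1a to 11250 nt on average in Scn8a, were longer than 96.5–99.1% of genes, and the beta transcripts, of 4176–4562 nt, were longer than 73.5–78.5%. A trend fitted to each library (lowess of its deviations on log10 length) gave a difference of -0.25 at the length of Scn1a, -0.26 at that of Scn2a1, -0.27 at that of Scn3a and -0.30 at that of Scn8a. At the lengths of the beta genes it gave -0.10 to -0.12.

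With that trend removed, Scn2a1 (-0.34, SE 0.05, adjusted p = 0.0117, limma), Scn3a (-0.31, SE 0.06, adjusted p = 0.0197) and Scn8a (-0.33, SE 0.07, adjusted p = 0.0289) still passed, 3 of 7 members beside 20.2% of all genes. Scn1a then had a log2 difference of 0.000480 (SE 0.09, adjusted p = 0.975), as the average of libraries that went opposite ways. Its deviations from the 8-library mean with the trend removed were -0.16 and 0.16 in the first and second libraries of mouse 3, and -0.05 to 0.04 in the other 6. For the other 6 members both libraries of mouse 3 stayed below 0. The beta genes were at -0.17 (Scn2b), -0.25 (Scn3b) and -0.21 (Scn4b), none past the threshold.

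Scaling to equal totals acted the other way, since the FPKM totals of mouse 3 were the highest (384885 and 409889, against 295541–345572). With TPM all 7 members passed and were lower in mouse 3, as were 37.3% of all genes, and the median of all genes moved to -0.23. Lower genes made up 85.7% of all calls with TPM and 44.6% with FPKM. Relative to that median the members stood at -0.31 (Scn1a) to -0.69 (Scn8a), close to the -0.27 to -0.65 found with FPKM.

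**Figure D2:**
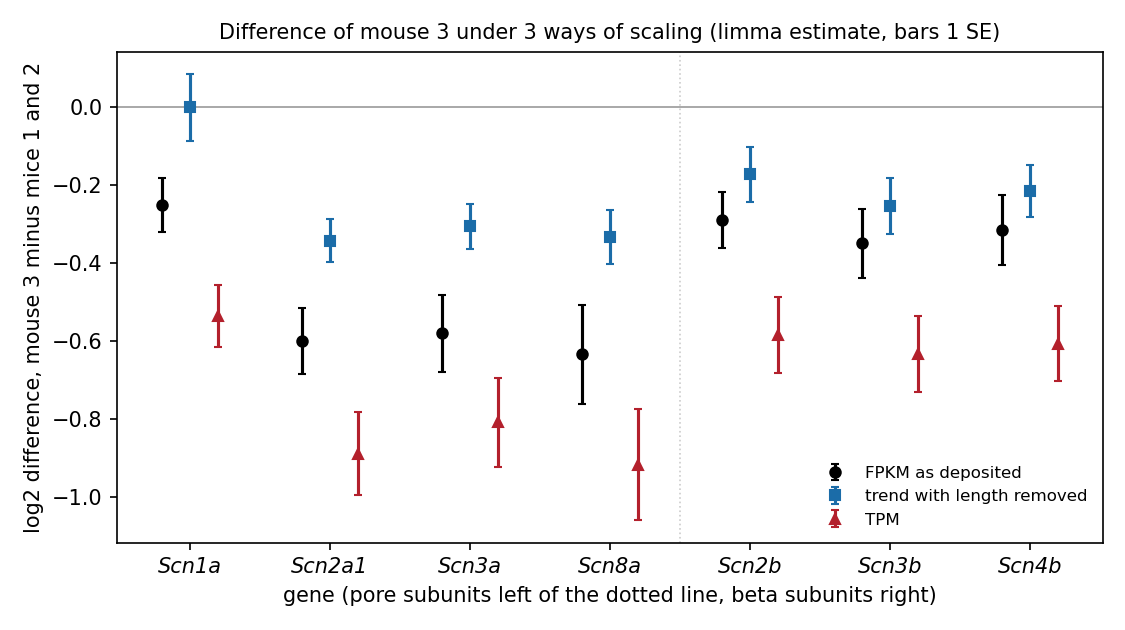
Log2 difference of mouse 3 from the mean of mice 1 and 2 (limma estimate, bars 1 SE) for the 4 pore and 3 beta genes that passed the filter, with FPKM as deposited (circles), with the length trend taken out (squares) and with TPM (triangles). Scn1a averages near 0 once the length trend is removed, from libraries at -0.16 and 0.16, while Scn2a1, Scn3a and Scn8a stay between -0.31 and -0.34.

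The make-up of the pore genes also differed in the second library of mouse 3. Scn1a held 34.1% of the pore sum there, against 27.1% in the first library of mouse 3 and 24.1–25.9% in mice 1 and 2. Scn8a held 22.5% against 27.3–28.5% in the other 7 libraries, and Scn3a 4.22% against 5.03–5.40%. The ratio of beta to pore sums was 1.53 and 1.65 in mouse 3. No test between the mice was made of this composition.

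**Figure D3:**
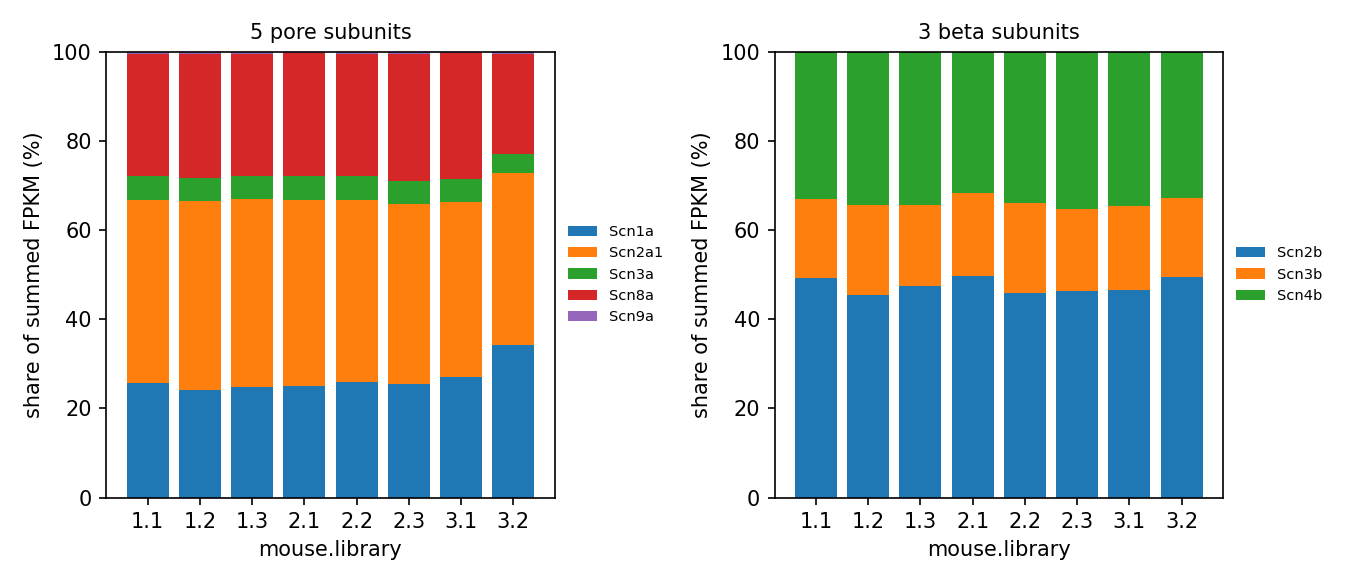
Share of the summed FPKM (%) of the 5 pore genes (left) and of the 3 beta genes (right) held by each gene, per library (mouse number, then library number). The pore shares of the last library stand apart, with 34.1% for Scn1a and 22.5% for Scn8a, while the beta shares stay level.

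Ratios between members show which genes kept step. The SD of the log2 ratio over the 8 libraries was lowest for Scn3a to Scn8a (0.05), at a mean ratio of 0.189. Scn2a1 kept step with Scn3a (0.09) and with Scn8a (0.09). Scn1a followed the beta gene Scn2b (0.07) more closely than any pore gene, and its ratios to Scn8a and Scn3a varied most among the 4 pore genes above 1 FPKM, with SDs of 0.26 and 0.27. Without the second library of mouse 3 the SD for Scn1a to Scn8a was 0.05. The libraries of a mouse share their source, so these SDs are descriptions over 3 animals. When genes were ranked by this SD, the closest other member stood at rank 7 for Scn8a and at rank 9 for Scn3a. For the remaining members it stood at ranks from 104 (Scn1a) to 612 (Scn9a), so many genes outside the members kept closer step.

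Among 12915 other genes, the one whose log2 ratio to a member had the smallest SD over the 8 libraries was named for each member. For Scn2a1 it was Kcnd2, a subunit of A-type potassium channels, with an SD of 0.0186 beside a median of 0.349 over all these genes. Scn4b was nearest to March6, a ubiquitin ligase of the endoplasmic reticulum (0.0211), and Scn2b to Prkacb, a catalytic subunit of protein kinase A (0.0311). For Scn3a it was Gspt2, a translation release factor (0.0358), for Scn1a Ireb2, an iron-regulatory RNA-binding protein (0.0366), and for Scn8a Plxna2, a semaphorin receptor (0.0371). Scn3b was nearest to Ano6, a lipid scramblase (0.0377), and Scn9a to Caprin2 (0.101).

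Markers of cell types moved with mouse 3 as well. In the libraries of mouse 3 the 4 oligodendrocyte markers summed to 3676 and 4561 FPKM, against 1902–2100 in mice 1 and 2, and the 4 astrocyte markers to 415.2 and 440.2 against 263.7–285.7. The 9 neuronal markers summed to 1691 and 1764 FPKM against 1970–2130. Of the 9 neuronal markers 4 were called beside 25.5% of all genes, all lower in mouse 3: Rbfox3, Syt1, Gad1 and Gad2. With the length trend removed 5 were called, and with TPM all 9, beside 43.5% of all genes, again lower in each case. Gad2, an enzyme of GABA synthesis, fell by 0.59 on the log2 scale (SE 0.10, adjusted p = 0.0124, limma) and Syt1, the calcium sensor of transmitter release, fell by 0.73 (SE 0.09, adjusted p = 0.00629).

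All 4 astrocyte markers were called and higher, as were 2 of 4 oligodendrocyte markers, Mbp among them, and 2 of 4 microglial markers (Cx3cr1 and C1qa). With the length trend removed these counts were 4, 2 and 1, and with TPM they were 1, 1 and 0. Of all genes, 14.1% were called higher with FPKM, 10.9% with the length trend removed and 6.21% with TPM. Microglial markers summed to 81.5 and 83.1 FPKM in mouse 3 against 61.2–70.4, endothelial markers to 34.0 and 36.5 against 20.4–28.2 and blood markers to 798 and 894 against 528–657. The globin genes with their short transcripts were mixed. Hbb-bt was the only 1 of the 4 blood markers called with FPKM, higher in mouse 3 (1.14, SE 0.18, adjusted p = 0.0107, limma). It was also called higher with TPM and with the length trend removed. Hba-a1 was at 0.28 with FPKM, not past the threshold, and at -0.47 with the length trend removed (adjusted p = 0.00875, limma). Precursors of oligodendrocytes were at 9.61 and 7.54 against 9.09–9.73. The list for fast-spiking and Purkinje neurons was mixed: its sum was 339 and 512 against 278–345, with Pvalb called higher and the potassium channels Kcnc1 and Kcnc2, which allow fast repolarisation, called lower. None of these 3 calls held with the length trend removed, where Pvalb was at 0.28 (adjusted p = 0.164, limma), Kcnc1 at -0.24 (0.0845) and Kcnc2 at -0.25 (0.0873). In bulk tissue fewer cells of a type and less RNA per cell cannot be told apart, and the part of these cell types in the channel values was not tested.

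**Figure D4:**
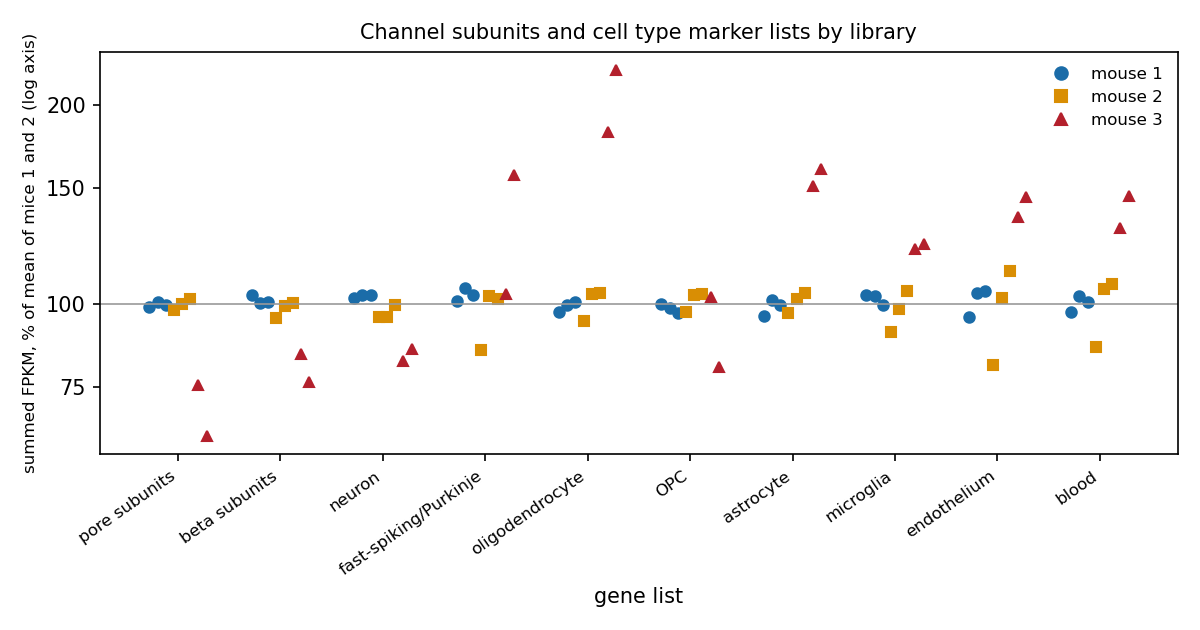
Summed FPKM of the pore genes, the beta genes and 8 lists of cell type markers in each library, as a percentage of the mean of mice 1 and 2 (log axis). In mouse 3 the pore sum lies at 75.5% and 63.3% and the beta sum at 84.2% and 76.4%, neuronal markers lie at 82.1% and 85.6% and oligodendrocyte markers at 182% and 226%.

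Markers of tissues outside the brain were low but not all at 0. The sensory neuron channels Scn10a and Scn11a reached at most 0.0842 and 0.106 FPKM, Mrgprd was at 0 in every library, and the 6 sensory ganglion markers summed to 1.65–2.15 FPKM, most of it Prph, with a mean of 1.65 FPKM. The skeletal muscle channel Scn4a was listed at 0 in 6 of 8 libraries and the heart muscle gene Myh6 reached at most 0.197 FPKM. The skeletal muscle actin Acta1 was at 1.66–12.6 FPKM, the heart troponin Tnnt2 at 1.98 ± 0.708 FPKM and the pituitary hormone gene Pomc, also active in the hypothalamus, at 1.58 ± 0.393 FPKM. Scn7a, a channel-related sodium sensor, was at 0.595 ± 0.0999 FPKM, a mean above that of Scn9a. The choroid plexus, a tissue inside the brain, was represented by markers that summed to 319–561 FPKM.

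The other sodium channel genes and the proteins that hold, modulate or degrade the channels gave 23 genes, of which 18 passed the filter and 3 were called, all lower in mouse 3, beside 25.5% of all genes. Nedd4l, a ubiquitin ligase that removes sodium channels from the membrane, fell by 0.58 (SE 0.10, adjusted p = 0.0140, limma). Its relative Nedd4 fell by 0.42 (SE 0.09, adjusted p = 0.0306). Sptan1, the alpha spectrin of the axonal membrane skeleton, fell by 0.60 (SE 0.13, adjusted p = 0.0299), from 106.7–113.7 FPKM in mice 1 and 2 to 88.7 and 59.4 FPKM.

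The remaining 15 partners did not pass. Ank3, ankyrin-G, which anchors channels at the axon initial segment, was at -0.23 (SE 0.11) and at 0.03 with the length trend removed. Nfasc, the adhesion molecule that beta subunits bind at nodes, was at -0.29 (SE 0.11). Fgf13, which binds the channel tail, was at 0.04 (SE 0.09) with FPKM and at -0.26 with TPM. Nalcn, the sodium leak channel, was at -0.22 (SE 0.08). With the length trend removed Nfasc was at -0.0111 and Nalcn at -0.000295. The median over the 18 genes was -0.22 with FPKM, -0.05 with the length trend removed and -0.50 with TPM.

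12 transcripts represent the 8 genes, and 5 genes have a single one. Scn8a has 2, and NM_011323, with the downstream exon, held 90.9 ± 1.20% of its FPKM. The share of this transcript was 87.1, 90.5 and 91.2% in mouse 1, 86.0, 94.1 and 92.6% in mouse 2 and 93.7 and 89.4% in mouse 3. It was the higher one in 8 of 8 libraries and the mice overlapped. NM_001077499, with the upstream exon, was at 1.29–3.66 FPKM, which left it above 0 by its deposited lower bound in each library.

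The same transcripts also differ at their 5′ ends, which lie 65.6 kb apart, so the estimate of whole transcripts cannot tell the exon choice from the start. The 250 bases before the start of the longer transcript are shown (RefSeq, GRCm38.p6) with CG dinucleotides in capitals. The annotated start of NM_011323 is also the first base of exon 2 of the longer GENCODE transcript, and the 60 bases before it are shown with the last 2 in capitals.
Scn8a before the start of NM_001077499 (chr15:100870395-100870644, plus strand): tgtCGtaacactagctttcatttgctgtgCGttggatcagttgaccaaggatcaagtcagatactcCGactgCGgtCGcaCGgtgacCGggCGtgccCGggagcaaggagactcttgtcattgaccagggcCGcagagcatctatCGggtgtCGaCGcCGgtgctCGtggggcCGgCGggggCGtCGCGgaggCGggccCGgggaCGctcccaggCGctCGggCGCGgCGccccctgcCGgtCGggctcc
Scn8a before the start of NM_011323 (chr15:100936211-100936270, plus strand): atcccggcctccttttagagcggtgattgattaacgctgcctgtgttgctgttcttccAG
The capitals at the end of the second sequence spell AG, the dinucleotide that ends introns. The motif CG, which reads the same on both strands, occurred 38 times in the 300 bases around the first start and 12 times around the second. Of 32851 such windows 4.95% and 39.6% held at least as many, and the median window held 7.

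Scn3b has 3 transcripts that share a start. NM_001083917 held 69.2 ± 3.52% and was highest in 8 of 8 libraries, NM_178227 held 27.6 ± 0.881% and NM_001286614 3.23 ± 2.85%. The last of these was unstable, between 0.00113% and 11.6% of the gene's FPKM, with the highest share in the first library of mouse 1 and the lowest in the third library of the same mouse.

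Scn9a has 2, and their shares varied between the libraries of a mouse. Besides the exon choice, NM_001290674 keeps 33 coding bases at the end of its exon 12 that NM_001290675 lacks. The estimate of whole transcripts cannot tell these 2 differences apart. NM_001290674, with the upstream exon, held 74.1 ± 30.4%: it took nearly all of the FPKM in the first and second libraries of mouse 1 and 52.3% in the third, 65.3%, 0.0337% and 68.2% in mouse 2 and 99.9% and 96.2% in mouse 3. It was the higher one in 7 of 8 libraries and the lower one in the second library of mouse 2. The coverage of each Scn9a transcript was at most 1.07 reads per base, against a median of 78.2 for Scn2a1. In 5 of 8 libraries the lower transcript held under 5%.

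**Figure D5:**
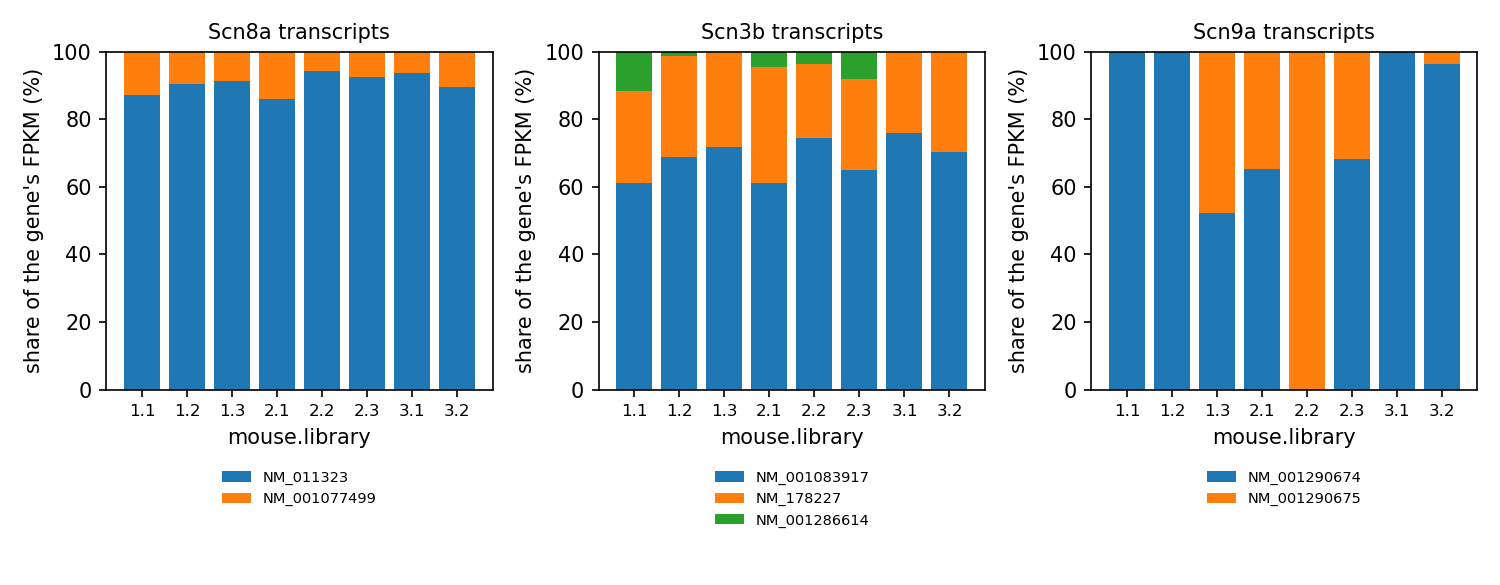
Share of a gene's FPKM (%) held by each RefSeq transcript of Scn8a, Scn3b and Scn9a, per library (mouse number, then library number). NM_011323 holds 86.0–94.1% of Scn8a in each library, while the split of Scn9a changes from library to library, down to 0.0337% for NM_001290674 in the second library of mouse 2.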

How the data were processed

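Whole brains of 3 mice were analysed by bulk RNA-seq (8 libraries). RNA with an integrity score above 8 was kept by the authors, and Kapa mRNA HyperPrep libraries were read on a NextSeq500 instrument. The deposited table gives FPKM per RefSeq transcript, made by the authors with TopHat and Cufflinks on mm10 per the submitters' processing notes (versions not stated), with confidence bounds, and coverage, a signal of read depth per base that the authors did not scale to library size. Reads shared by transcripts were divided by their estimation, so a sum is surer than the value of 1 transcript. Locus starts in the deposited table are 0-based, and 1 was added. The status was FAIL for 8 values, none of a member. Columns of other samples: 0.

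FPKM were summed per gene and averaged per mouse, then over mice. Differences between mice were tested with limma 3.58.1 in R 4.3.3 (moderated F-test, Benjamini-Hochberg, threshold 0.05) on log2(FPKM + 1) over the 13001 genes that averaged 1 FPKM or more, after a check on simulated data. Lengths are means over transcripts weighted by FPKM, and the lowess span was 0.3. Named were all members, the partner genes called and 4 others chosen by role, and the gene nearest each member by the SD of the log2 ratio. Some items are not reported here. The members and lists were chosen with earlier results of these data known. Alternatives were another pseudocount (0.1 FPKM), no filter, TPM, removal of the length trend, the highest transcript per gene, library number as a block and each library left out. The composition and ratio alternatives were chosen after seeing the data. FPKM are not counts, so no counting interval was computed.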

Additional observations from a re-analysis of the deposited data

Results flagged for a closer look

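3 of 27 quantities checked over the 8 libraries (members' FPKM, their shares and sums, and transcript shares) had 1 library far from the rest by Dixon's criterion for 8 values, all of them shares of the pore sum in the second library of mouse 3. Scn1a held 34.1% there, with 27.1% in the nearest other library, and the gap was 0.705 of the whole range. Scn8a held 22.5%, with 27.3% in the nearest other, a gap of 0.795 of the range. Scn3a held 4.22%, with 5.03% in the nearest other, a gap of 0.688 of the range. These 3 are parts of 1 sum and are not independent of each other, the libraries come from 3 mice only, and chance alone puts about 1 in 20 groups past the limit.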

How the results depend on the processing

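Of 98 member differences of mouse 3 under 14 alternatives, 97 were below 0, as in the values reported. The exception was Scn1a with the length trend removed (0.000480). The count of members called, 5, was 3 with a pseudocount of 0.1 FPKM, with the length trend removed, with the highest transcript of each gene and with the library number as a replicate block, each time Scn2a1, Scn3a and Scn8a. With no filter it was 5, with Scn1a called and Scn3b not. It was 0–7 when a library was left out, with 0 without the second library of mouse 3, 2 without the second or the third of mouse 1 and 7 without the first of mouse 2. The 3 partner genes called became 15 with TPM, 1 with the block (Nedd4l) and 0–9 when a library was left out, with 9 without the first library of mouse 3. The median member difference, -0.35, was -0.63 with TPM and between -0.46 and -0.29 with a library left out. Among partners that were not called, Ank3 turned to 0.0309 with the length trend removed and 0.0905 with the highest transcript, and Fgf13 to -0.26 with TPM and -0.0167 with the trend removed (-0.0381 to 0.11 with a library left out). The level of Scn3b was 16.0 FPKM from its highest transcript, by construction. The share of NM_178227 was 26.5–28.6% and the SD of the Scn1a to Scn8a log2 ratio 0.0504–0.28 with a library left out. Beyond these constructions the cause was not tested. Library numbers did not pair the mice: deviations from the mouse means of same-numbered libraries correlated by 0.00 to 0.11 over 7 pairs, with 1 above 0.1, so the block is only a number. All mice were of 1 condition, and the shares of the low Scn9a transcripts varied between libraries of a mouse.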
